A study of Mus musculus with 6 samples.

Results

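Interferon-stimulated genes and antigen presentation genes were examined by RNA sequencing in mouse libraries whose label is chondrocytes, the cell type of cartilage. Members were all rows of the deposited gene table whose name starts with H2-, together with rows named in a list of 31 interferon and presentation genes. This gave 34 of 11955 rows: 12 H2- rows and 22 rows from the list. The 9 other names on the list (Cmpk2, Ifit3b, Mx1, Mx2, Oas1a, Oasl1, Tap1, Tap2 and Zbp1) had no row and were not analysed here. The study compared 3 libraries labelled control with 3 labelled Eldr cKI, where Eldr is a long noncoding RNA studied in chondrocyte senescence. Age, strain, and the promoter or Cre behind the Eldr cKI allele are not given in the sources used here. The design names Eldr cKI mice but ties no library to a separate mouse or culture, so the spread between them may be technical. Eldr itself had no row, so the allele could not be checked against its own RNA.

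As background, nearly all nucleated cells show peptides from their own proteins on major histocompatibility complex (MHC) class I molecules. Each pairs a heavy chain, encoded in the mouse by an H2- gene such as H2-K1 or H2-D1, with the light chain B2m. Class II molecules are made mainly by professional antigen-presenting cells such as macrophages, dendritic cells and B cells. Interferons signal through JAK kinases and STAT factors to interferon-stimulated genes, and they also raise class I genes in many cell types, in part through the interferon-stimulated response element (ISRE).

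Promoter windows of the members were searched for binding motifs of the pathway. The ISRE core was written as GAAANNGAAA and searched on both strands in RefSeq windows from 250 bases before to 50 bases after each gene's start (build GRCm38.p6). Of all 27025 gene symbols with a window, 3.99% held it. Windows were found for 29 of the 34 members, and 12 of these 29 (41.4%) held the core, namely B2m, Bst2, Cxcl10, Ddx58, H2-T22, H2-T23, Ifih1, Ifit1, Ifit3, Isg15, Rsad2 and Stat2. The interferon-gamma activated site, written as TTCNNNGAA, was in 9.55% of all symbols and in 3 of the 29 members (10.3%), Bst2, Ifit2 and Irf1. A match describes these letters only and is not evidence of a bound factor. Sites that differ from these letters were not searched for, so a window without a match may still hold such an element. The 250 bases before the start are shown for 4 genes, with ISRE cores in capitals. B2m and H2-D1 were the members listed above 0 in every library, Bst2 was the interferon-induced effector listed in most libraries, and Isg15 is a textbook interferon target that was listed in a single library.
B2m, chr2:122147437-122147686, plus strand: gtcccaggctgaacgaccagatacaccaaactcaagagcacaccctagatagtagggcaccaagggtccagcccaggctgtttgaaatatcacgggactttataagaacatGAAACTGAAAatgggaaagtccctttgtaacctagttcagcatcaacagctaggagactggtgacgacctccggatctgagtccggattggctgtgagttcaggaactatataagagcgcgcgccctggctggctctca
H2-D1, chr17:35262844-35263093, plus strand: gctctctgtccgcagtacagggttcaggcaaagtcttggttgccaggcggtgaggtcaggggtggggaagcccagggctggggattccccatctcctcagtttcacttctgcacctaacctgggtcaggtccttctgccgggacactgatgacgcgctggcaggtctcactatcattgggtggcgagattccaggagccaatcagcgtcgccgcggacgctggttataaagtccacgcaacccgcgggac
Bst2, chr8:71537473-71537722, minus strand: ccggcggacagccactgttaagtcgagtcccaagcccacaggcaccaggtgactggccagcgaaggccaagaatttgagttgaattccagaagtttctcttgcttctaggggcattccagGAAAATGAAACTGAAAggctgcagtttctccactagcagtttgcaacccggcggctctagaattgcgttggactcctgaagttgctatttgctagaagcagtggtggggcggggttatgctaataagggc
Isg15, chr4:156200819-156201068, minus strand: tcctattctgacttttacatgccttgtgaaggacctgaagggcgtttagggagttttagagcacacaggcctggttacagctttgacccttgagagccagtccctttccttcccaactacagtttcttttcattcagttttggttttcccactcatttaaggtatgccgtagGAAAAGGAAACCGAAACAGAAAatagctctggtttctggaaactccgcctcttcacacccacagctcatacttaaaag
The B2m core began 139 bases before the start. Bst2 held 2 overlapping cores, beginning 130 and 124 bases before its start, and Isg15 held 3 overlapping cores, beginning 78, 72 and 66 bases before its start. The H2-D1 window held no core in these exact letters, which does not show that it lacks an ISRE. That window was placed by the RefSeq start and lies inside the deposited span of the gene (35262730 to 35267499). The bases before the start of that span were not searched.

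Most member values above 0 rested on few estimated fragments. Values were FPKM, fragments per kilobase of transcript scaled to each library's mapped fragments, and the depth read from the steps between low values was 64167 to 239144 fragments per library. On this estimate, 1 fragment on a transcript of 1 kilobase was worth 4.18 to 15.6 FPKM. Some member values came to less than 1 fragment even on the longest annotated transcript, as low as 0.260 for Tapbp in control replicate 2. The step is therefore a rough scale and not a floor of 1 fragment. Members above 0 numbered 19, 11 and 17 across control libraries 1, 2 and 3 and 17, 13 and 17 across Eldr cKI libraries, or 32.4% to 55.9% of the 34, against 37.0% to 75.0% of all rows. Outside B2m and H2-D1, 82 member values lay above 0. On the longest annotated transcript, which gives the highest estimate, 72 of these 82 came to at most 3.5 fragments and 50 to at most 1.5. A member listed at 0 may have been below what this depth could show, so its absence cannot be inferred. The parts of depth, tissue content and read assignment in the zeros were not tested.

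**Figure D1:**
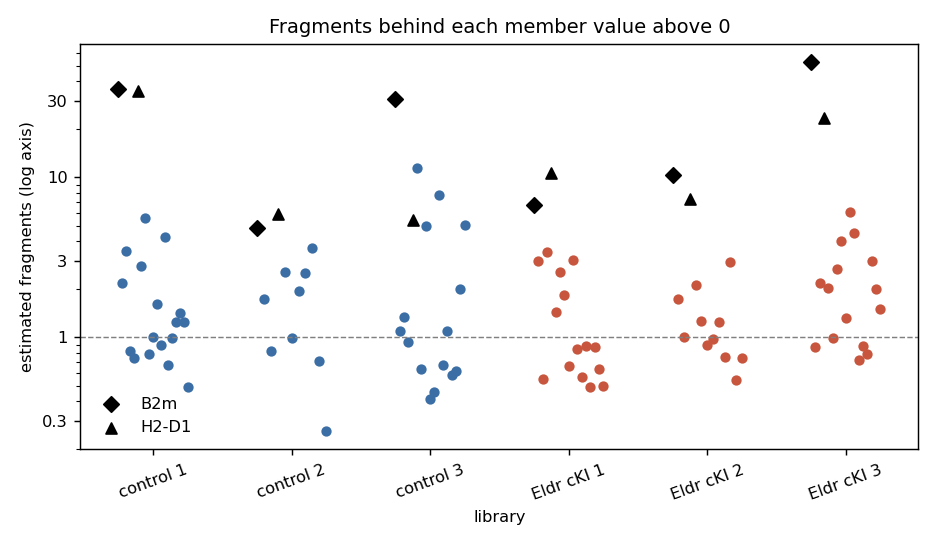
Estimated fragments (vertical, log axis) behind each member value above 0, by library (horizontal), using the longest annotated transcript of each gene. B2m (diamonds) and H2-D1 (triangles) reach 4.85 to 52.4 fragments, and most other points lie near the dashed line at 1 fragment.

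Markers were checked against the label. The cartilage list had 7 of its 14 genes in the table, with a summed 5.01 to 12.7 FPKM in control and 1.25 to 10.4 in Eldr cKI, and Col2a1, the main collagen of cartilage, was listed at 0 in 4 of 6 libraries. Cardiomyocyte genes, with 11 of 12 in the table, summed to 1222 to 2470 FPKM in control and 1724 to 5365 in Eldr cKI, so the values do not bear out the labelled cell type. Hepatocyte genes summed to 9237 FPKM in control replicate 3, against 74.5 to 506 elsewhere. Photoreceptor genes summed to 1035 FPKM in control replicate 1, to 1489 in control replicate 2, and to at most 5.51 elsewhere. In such mixed samples, fewer cells of a type and less RNA per cell cannot be told apart.

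No member passed the test between Eldr cKI and control. Of the 34 members, 31 had a mean of at least 0.5 FPKM and entered the limma fit over 10772 genes, and 0 of 31 had an adjusted p under 0.05 (Benjamini-Hochberg), against 0.0278% of all genes tested. At an unadjusted p under 0.05, 0 members were higher, against 0.678% of all genes, and 0 were lower, against 1.66%. The smallest adjusted p of a member was 0.959. Log2 fold changes were below 0 for 20 of the 31 members and above 0 for 11, with a median of -0.22, beside a median of -0.04 over all genes tested. The median was 0.06 with quantile normalization and 0.12 with libraries rescaled without mitochondrial and predicted (Gm) genes, so it has no firm direction. The standard errors of the fit follow a mean-variance trend across genes, not the spread of each gene. In the authors' deposited table the smallest p of a member was 0.0503, for Oasl2, with a q of 0.704.

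**Figure D2:**
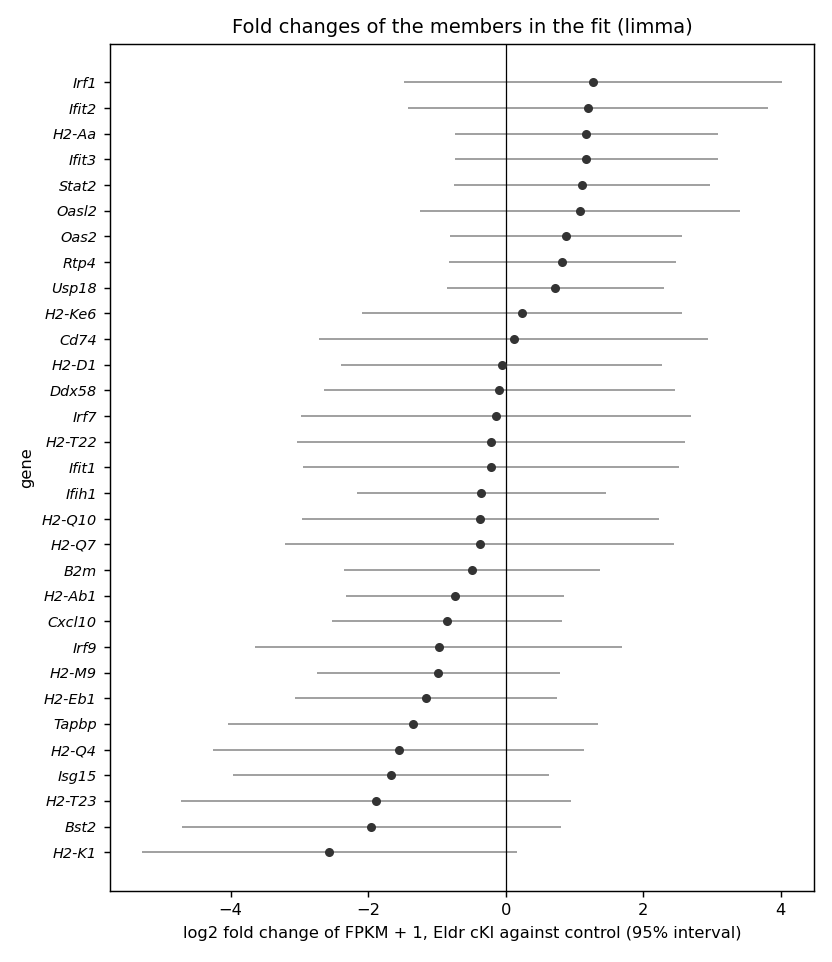
Log2 fold change of FPKM + 1, Eldr cKI against control (horizontal), for the 31 members in the limma fit (vertical), with 95% intervals from the limma standard errors. Every interval includes 0, and the farthest from 0 is that of H2-K1 at -2.57.

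Groups that did not overlap were few among the members, though their share was above that of all genes tested in each direction. These shares rest on 1 and 3 members and the difference was not tested. Oasl2 was higher in all Eldr cKI libraries than in any control, which makes 1 of 31 members, against 1.25% of all genes tested. H2-K1, H2-Q4 and Irf9 were lower in all Eldr cKI libraries than in any control, 3 of 31 members, against 2.53% of all genes. Oasl2, a ubiquitin-like relative of the oligoadenylate synthetases, was at 0.930, 0 and 0 FPKM across control libraries, against 1.52, 2.51 and 1.05 across Eldr cKI libraries, with a log2 fold change of 1.08 (SE 1.19, limma adjusted p = 0.959). Each of its values came to at most 0.784 fragments. Irf9, the DNA-binding part of the complex that binds the ISRE, was at 1.93, 2.87 and 1.89 FPKM across control libraries, against 1.41, 0 and 0.776 across Eldr cKI libraries, with a log2 fold change of -0.98 (SE 1.36, limma adjusted p = 0.999). Its values came to at most 1.25 estimated fragments each, so both separations rest on values of about 1 estimated fragment or less per library.

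Of the class I genes, the light chain B2m was the most abundant member in every library. B2m (ENSMUSG00000060802.8, chromosome 2, 122147686 to 122153083, plus strand) was at 249.1, 87.9 and 424 FPKM across control libraries 1, 2 and 3, against 75.2, 174 and 255 across Eldr cKI libraries. The groups overlapped, with the lowest value in Eldr cKI replicate 1 and the highest in control replicate 3. Control libraries averaged 254 ± 168 FPKM and Eldr cKI libraries 168 ± 90.0 (SD, n = 3), giving a log2 fold change of -0.49 (SE 0.95, limma adjusted p = 0.999). Leaving out control replicate 3 gave 0.01, and leaving out Eldr cKI replicate 1 gave 0.00047. B2m came to 35.9, 4.85 and 30.9 fragments across control libraries, against 6.68, 10.3 and 52.4 across Eldr cKI libraries, so control replicate 2 and Eldr cKI replicate 1 carry wide counting errors. Set against the summed FPKM of 20 housekeeping genes, B2m was 26.9% in control replicate 3, against 4.74% to 7.27% elsewhere. Control replicate 3 was also the library with the hepatocyte genes, and the part of that in its B2m level was not tested.

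H2-D1, a classical class I heavy chain (ENSMUSG00000073411.11, chromosome 17, 35262730 to 35267499, plus strand), was the other member listed above 0 in every library. It was at 98.9, 43.7 and 30.4 FPKM across control libraries, against 49.1, 50.6 and 46.8 across Eldr cKI libraries. The Eldr cKI libraries lay inside the range of the controls, and its log2 fold change of -0.06 (SE 1.19, limma adjusted p = 0.999) has a 95% interval of -2.40 to 2.28 and turned positive with quantile normalization (0.062), without Gm and mitochondrial rows (0.24), with array quality weights (0.046) and without control replicate 1 (0.41). H2-K1, the other classical heavy chain measured here (ENSMUSG00000061232.15, chromosome 17, 33996017 to 34000333, minus strand, a span that differs from the M21 annotation), was at 17.9, 21.2 and 72.6 FPKM across control libraries, against 7.42, 16.5 and 0 across Eldr cKI libraries. All 3 controls were above all 3 Eldr cKI libraries, and the log2 fold change of -2.57 (SE 1.39) did not pass (limma adjusted p = 0.959). The separation was lost on other scales. As a share of the housekeeping sum, H2-K1 was 0.521%, 1.14% and 4.61% across control libraries, against 0.678%, 0.618% and 0% across Eldr cKI libraries.

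The nonclassical class I genes were sparser. H2-T23, which encodes Qa-1, the ligand of inhibitory receptors on natural killer cells, was at 9.57, 0 and 34.5 FPKM across control libraries, against 0, 0 and 6.34 across Eldr cKI libraries (log2 fold change -1.89, SE 1.45, limma adjusted p = 0.959). Its value was highest in control replicate 3, and without that library the log2 fold change was -0.74. H2-Q4 was at 2.30, 5.96 and 1.89 FPKM across control libraries, against 0, 0 and 1.60 across Eldr cKI libraries, each at most 1.00 fragment. H2-Q7, which encodes a Qa-2 antigen, was listed in 5 libraries at 1.28 to 7.27 FPKM, and H2-T22, a ligand of some gamma delta T cell receptors, in 4 at 1.75 to 12.9. H2-Q10, a secreted class I molecule made in liver, was listed at 13.5 FPKM in control replicate 3 and at 5.75 in Eldr cKI replicate 1, and at 0 elsewhere. H2-M9 was listed in control replicate 3 only, at 6.67 FPKM. Class I heavy chains are close in sequence, so reads could be split among these rows and the value of any single row is uncertain.

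Summing the 8 heavy chain rows reduces the effect of such splitting. The sum was 133, 91.0 and 161 FPKM across control libraries, against 66.5, 75.7 and 58.4 across Eldr cKI libraries, with no overlap between groups and with means of 128 ± 35.1 and 66.9 ± 8.67 (SD, n = 3). As a share of the housekeeping sum the order changed, with 3.87%, 4.90% and 10.2% across control libraries, against 6.07%, 2.84% and 1.37% across Eldr cKI libraries. As a share of all FPKM outside mitochondrial and Gm rows it was 0.105%, 0.0954% and 0.140% across control libraries, against 0.145%, 0.0692% and 0.0399% across Eldr cKI libraries. On both of these scales the groups overlapped, because Eldr cKI replicate 1 lay among or above the controls. H2-D1 made up 74.5%, 48.0% and 18.9% of the sum across control libraries, against 73.8%, 66.9% and 80.1% across Eldr cKI libraries, so its share was lowest in control replicate 3, where H2-K1 held 45.1%.

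**Figure D3:**
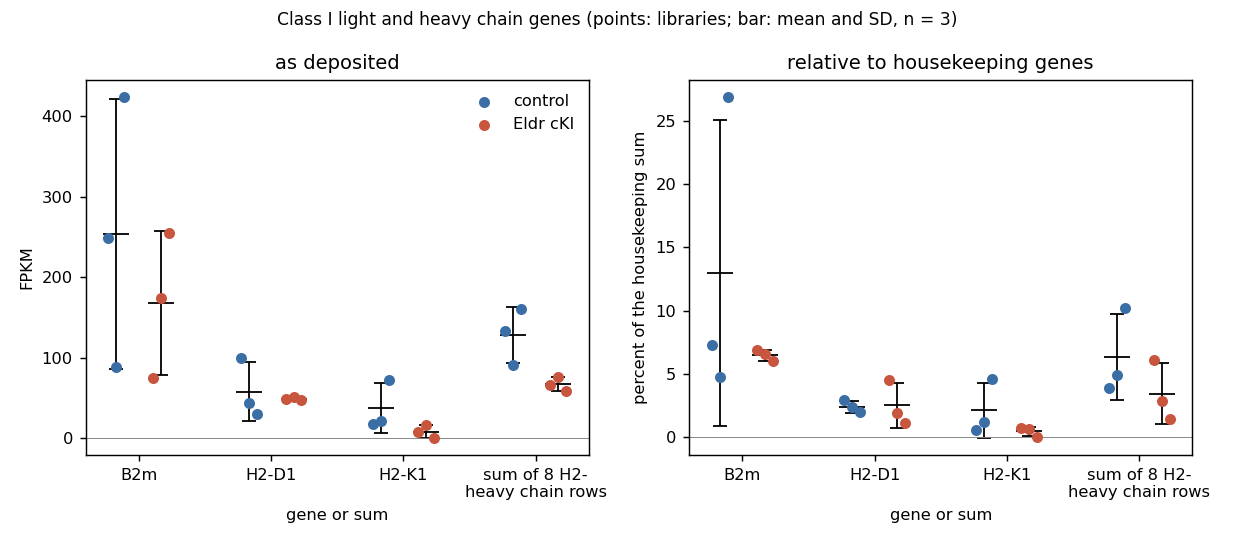
FPKM (left) and percent of the summed FPKM of 20 housekeeping genes (right) for B2m, H2-D1, H2-K1 and the sum of the 8 class I heavy chain rows, with 1 point per library and the mean and SD (n = 3). The heavy chain sums of the groups separate on the left, at 91.0 to 161 against 58.4 to 75.7, and overlap on the right.

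Peptide loading was represented by Tapbp, tapasin, which holds class I molecules at the peptide transporter. It was at 0, 1.40 and 20.7 FPKM across control libraries, against 0, 0 and 2.16 across Eldr cKI libraries, so its level rested on control replicate 3 (log2 fold change -1.35, SE 1.37, limma adjusted p = 0.959; -0.08 without that library). H2-Ke6 carries the H2- prefix by position only and encodes a steroid dehydrogenase. It was listed at 3.66 FPKM in 1 control library, replicate 1, and at 6.58 in Eldr cKI replicate 3.

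The class II genes were listed in a scattered way, 4 members in all. Cd74, the invariant chain that guides class II molecules to endosomes, was at 14.8, 0 and 11.3 FPKM across control libraries, against 20.7, 10.3 and 0 across Eldr cKI libraries (log2 fold change 0.11, SE 1.44, limma adjusted p = 0.999). H2-Aa, an alpha chain, was listed in Eldr cKI replicate 1 only, at 10.3 FPKM. H2-Eb1 and H2-Ab1, both beta chains, were listed in control replicate 1 only, at 10.05 and 3.65 FPKM. No library therefore listed an alpha chain together with a beta chain. Control replicate 2 and Eldr cKI replicate 3 listed none of the 4 members, and each class II value came to at most 3.49 fragments.

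Macrophage markers, with 11 of 12 genes in the table, summed to 191 to 318 FPKM in control and to 239, 287 and 12.6 in Eldr cKI. Lyz2, the lysozyme of myeloid cells, made up most of that sum and was at 168, 106 and 242 FPKM across control libraries, against 179, 178 and 0 across Eldr cKI libraries. Eldr cKI replicate 3 was thus at 0 for Lyz2 and for all class II members, while control replicate 2 had macrophage markers and no class II member. Of the dendritic cell list 1 of 8 genes was in the table, at 1.57 FPKM in control replicate 1 and 0 elsewhere. Of the B cell list 2 of 6 were in the table, listed in control replicate 2 at 10.9 FPKM and in Eldr cKI replicate 1 at 3.36, and of the T and natural killer cell list 1 of 10, at 2.43 FPKM in Eldr cKI replicate 3. The part of these cells in the class II values was not tested.

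**Figure D4:**
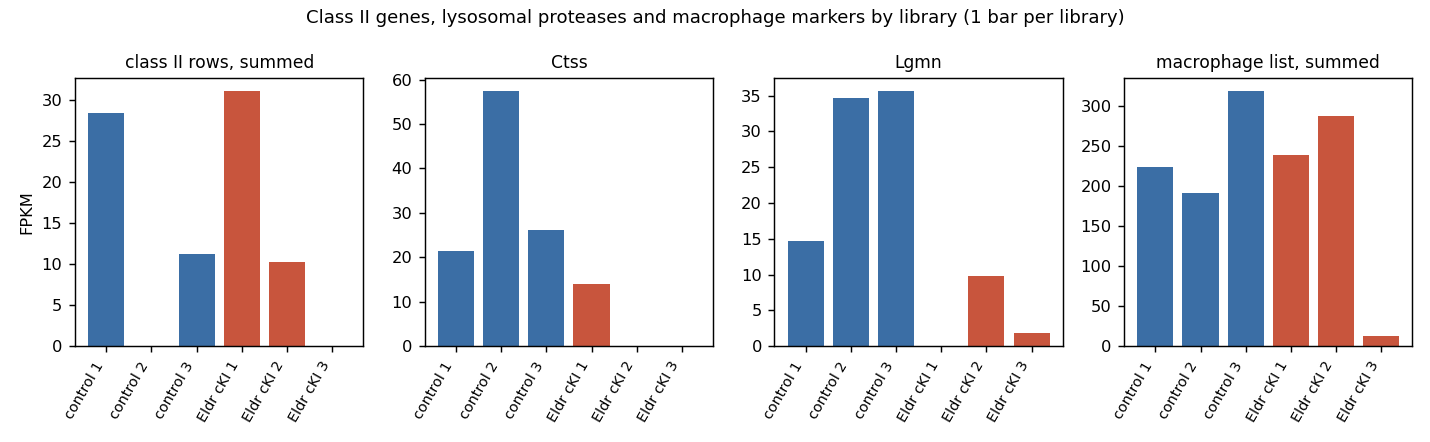
FPKM by library (1 bar each) of the 4 class II members summed, of the lysosomal proteases Ctss and Lgmn, and of the macrophage list summed. Control replicate 2 and Eldr cKI replicate 3 show no class II bar, and the macrophage sum is lowest, at 12.6, in Eldr cKI replicate 3.

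Interferon-induced effectors were detected a few fragments at a time. Bst2, tetherin, which holds budding virus at the cell surface (ENSMUSG00000046718.8, chromosome 8, 71534255 to 71537456, minus strand), was at 16.5, 34.3 and 16.5 FPKM across control libraries, against 0, 31.9 and 4.60 across Eldr cKI libraries. The groups overlapped through Eldr cKI replicate 2, and the log2 fold change of -1.96 (SE 1.40, limma adjusted p = 0.959) was -0.70 without Eldr cKI replicate 1. Isg15, a ubiquitin-like modifier, was listed in control replicate 3 only, at 31.3 FPKM, which came to 2 fragments on its single transcript. Ifit1, which binds foreign RNA ends, was at 2.24, 0 and 4.88 FPKM across control libraries, against 11.1, 0 and 0 across Eldr cKI libraries, or 0.997 and 1.10 fragments against 3.06. Its relative Ifit2 was at 1.97, 0 and 0 FPKM across control libraries, against 0, 3.68 and 6.66 across Eldr cKI libraries, and Ifit3 was listed in Eldr cKI replicate 2 only, at 10.3.

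Several effectors were listed in Eldr cKI libraries alone, mostly in replicate 1. Rtp4, at 4.52 FPKM, Xaf1, at 1.85, Ifi44, at 1.58, and Usp18, a protease that removes Isg15 and dampens the receptor, at 3.46, were each listed in Eldr cKI replicate 1 and at 0 in the other 5 libraries. Oas2, an RNA-activated synthetase, was at 2.17 FPKM in Eldr cKI replicate 1 and at 0.927 in replicate 3, and Rsad2, viperin, at 2.99 in replicate 3. These 6 genes had between 0.498 and 3.00 estimated fragments per value above 0. Eldr cKI replicate 1 listed 6 of the 11 antiviral effectors, with 4420 rows above 0 and 103363 estimated fragments, and control replicate 1 listed 4, with 8969 rows and 167566 fragments. Over the effectors, the counts above 0 were 4, 1 and 3 across control libraries, against 6, 4 and 5 across Eldr cKI libraries. The share of all rows above 0 was 75.0%, 43.3% and 45.3% across control libraries, against 37.0%, 48.6% and 70.2% across Eldr cKI libraries. Of all 34 members, 9 were above 0 only in Eldr cKI, beside 1394 of all 11955 rows. Only in control were 5 members above 0, beside 1980 of all 11955 rows. As 12 members were above 0 in exactly 1 library, these counts turn on few values. Every one of the 11955 rows was above 0 in at least 1 library. A gene with a single value above 0 is thus among the rows through that value. Listed names without a row are not in these counts. Rsad2, Xaf1 and Ifi44 had means under 0.5 FPKM and were not in the fit, and none of the others passed. No cause was tested.

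**Figure D5:**
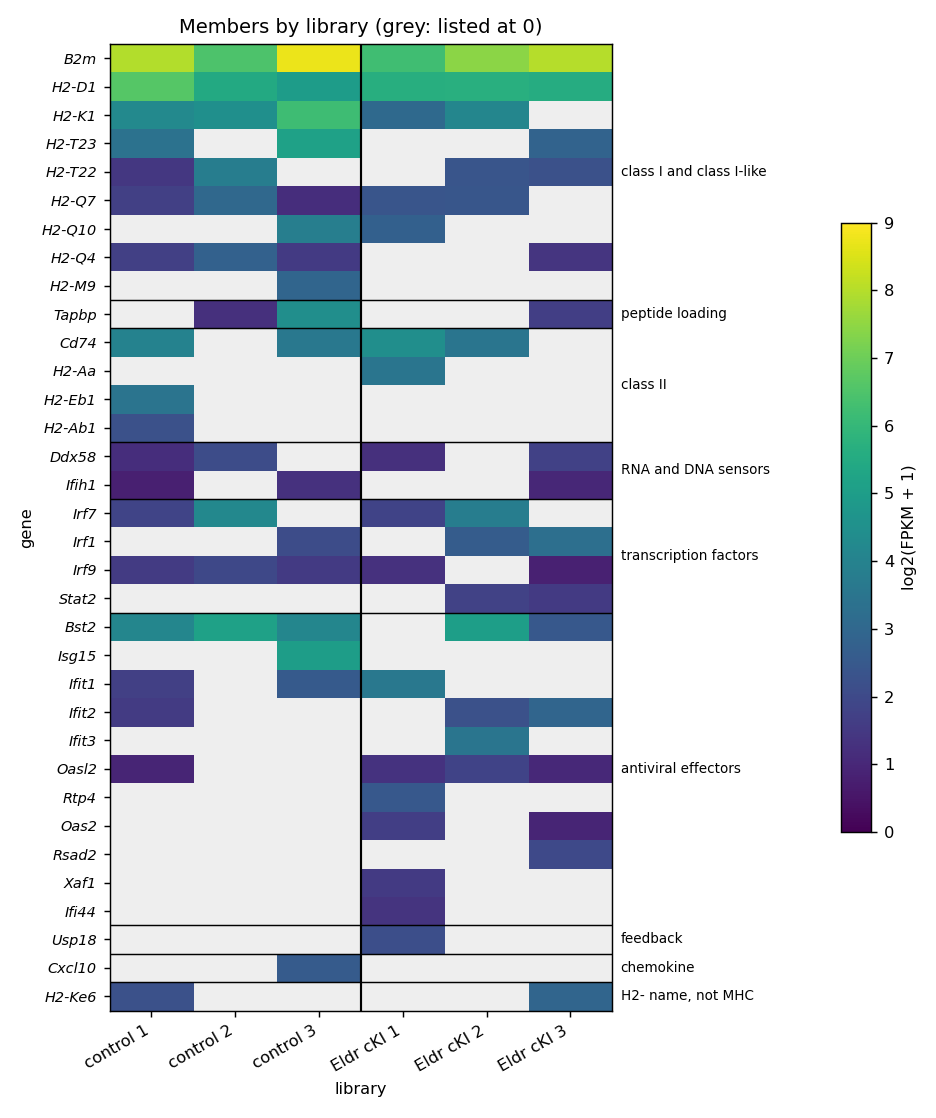
Level of each of the 34 members (rows, by role) in each library (columns) as log2(FPKM + 1), with grey where the gene was listed at 0. B2m and H2-D1 are the only rows without grey, and Rtp4, Xaf1, Ifi44 and Usp18 are coloured in Eldr cKI replicate 1 alone.

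The regulators and sensors were as sparse. Irf7, the factor that drives interferon-alpha genes, was at 2.63, 17.4 and 0 FPKM across control libraries, against 2.54, 13.1 and 0 across Eldr cKI libraries, so its high and low values fell in both groups (log2 fold change -0.14, SE 1.45, limma adjusted p = 0.999). Irf1, the interferon-gamma responsive factor, was at 0, 0 and 3.23 FPKM across control libraries, against 0, 5.13 and 8.74 across Eldr cKI libraries. Stat2, the partner of Irf9, was listed in Eldr cKI replicates 2 and 3 only, at 2.44 and 1.90 FPKM. Ddx58 (RIG-I) and Ifih1 (MDA5), cytoplasmic sensors of viral RNA, were listed in 4 and 3 libraries at 0.731 to 3.30 FPKM, in both groups. Cxcl10, a chemokine that draws T cells, was listed in control replicate 3 only, at 4.95 FPKM.

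Other genes of the pathway gave no call either. Of 72 further interferon and presentation genes in the fit, 0 passed, and at an unadjusted p under 0.05 there was 1 higher, beside 0.678% of all genes tested, and 3 lower, beside 1.66% (limma). Among ligands, receptors and signalling genes 25 of 43 were in the table, none of them an interferon, and 23 entered the fit. Of these, 16 were above and 7 below 0 in log2 fold change, with a median of 0.63, beside -0.04 over all genes tested. Genes of this list above 0 numbered 16, 6 and 8 across control libraries, against 6, 14 and 21 across Eldr cKI libraries. Of all rows, 75.0%, 43.3% and 45.3% were above 0 across control libraries, against 37.0%, 48.6% and 70.2% across Eldr cKI libraries. The list counts thus rose and fell with the share of all rows. Over the 72 further genes the median was 0.25. Without Eldr cKI replicate 3 it was -0.0093, beside -0.61 over all genes tested. No list median was tested. The receptor chains were near the floor. Ifnar1 was at 8.23, 0 and 0 FPKM across control libraries, against 0, 0 and 1.53 across Eldr cKI libraries, and Ifngr1 at 14.1, 0 and 0 across control libraries, against 0, 5.08 and 8.27 across Eldr cKI libraries. Their partner chains were listed in 2 and 3 libraries. Ifnar2 was at 3.56 FPKM in control replicate 3 and at 2.34 in Eldr cKI replicate 3, and Ifngr2 at 5.13 in control replicate 3, 16.7 in Eldr cKI replicate 2 and 1.86 in Eldr cKI replicate 3. Nlrc5, the activator of class I genes, was at 0.703, 0.141 and 0.284 FPKM across control libraries, against 0.425, 0 and 3.49 across Eldr cKI libraries. Tmem173 (STING), the adaptor of DNA sensing, was listed in Eldr cKI replicates 2 and 3 only, at 6.29 and 3.62 FPKM, Tyk2, a receptor kinase, in Eldr cKI replicate 1 at 2.82 and replicate 3 at 0.731, and Mavs, the adaptor of RIG-I, in control replicate 2 only, at 8.39. Rfxank, a class II promoter factor, was listed in Eldr cKI replicate 3 only, at 5.85 FPKM.

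Of the other interferon-stimulated genes 37 of 50 entered the fit, with 23 above and 14 below 0 and a median of 0.26. Ly6a (Sca-1), a surface protein of stem and stromal cells, had the largest rise of these in log2 fold change, 3.70 (SE 1.43, limma adjusted p = 0.959). It was at 7.36, 0 and 0 FPKM across control libraries, against 15.3, 29.9 and 35.7 across Eldr cKI libraries, without overlap, the 1 such higher gene of the 72, beside 1.25% of all genes tested. Ifi27l2a went the other way, at 25.4, 67.2 and 25.6 FPKM across control libraries, against 0, 31.3 and 0 across Eldr cKI libraries (log2 fold change -3.51, SE 1.41, limma adjusted p = 0.959), and its groups overlapped through Eldr cKI replicate 2. Adar, an RNA editing enzyme, was listed in control replicates 2 and 3 only, at 7.31 and 6.64 FPKM. Gbp3, a guanylate-binding protein, was at 70.1, 4.74 and 0 FPKM across control libraries, against 5.37, 63.7 and 78.8 across Eldr cKI libraries, highest in control replicate 1 and Eldr cKI replicates 2 and 3, the 3 libraries with the highest housekeeping sums.

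Of the other presentation genes 12 of 16 entered the fit, with 3 above and 9 below 0 and a median of -0.69. Ctss, cathepsin S, which cuts the invariant chain in class II compartments, was at 21.5, 57.4 and 26.1 FPKM across control libraries, against 13.96, 0 and 0 across Eldr cKI libraries (log2 fold change -3.74, SE 1.42, limma adjusted p = 0.959). Lgmn, legumain, another lysosomal protease, was at 14.7, 34.7 and 35.6 FPKM across control libraries, against 0, 9.86 and 1.79 across Eldr cKI libraries (log2 fold change -3.13, SE 1.42, limma adjusted p = 0.959). For both proteases all controls were above all Eldr cKI libraries, and neither passed. They were the 2 of the 72 further genes with such a separation, which 2.53% of all genes tested also showed, so this share is near the background. Macrophages make both, and the macrophage sum, mostly Lyz2, was 239, 287 and 12.6 FPKM across Eldr cKI libraries. The part of macrophages in these values was not tested. Erap1, which trims peptides for class I, was listed in Eldr cKI replicates 2 and 3 only, at 3.93 and 5.68 FPKM, and Psme1, a proteasome activator subunit, at 15.2 and 50.8 in control replicates 1 and 3 and at 14.6 in Eldr cKI replicate 3.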

How the data were processed

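The authors deposited FPKM for 6 libraries, 3 control and 3 Eldr cKI, in a table of genes, per the file headers. Reads went through cutadapt, HISAT2 2.0.5 and StringTie, according to the submitters' processing notes. Those notes name build hg19, but 11017 of 11955 rows, and 28 of 34 members, have the span of the mouse GENCODE M21 annotation (GRCm38), and loci are given as in the table. Strand use in counting and the treatment of multiply aligned reads are not given in the sources used here. The deposited table also lists, for every gene, the log2 fold change, the linear fold (ratio) and its p-value with q-value. Group values that the authors deposited are means of log2(FPKM + 1).

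Limma 3.58.1 in R 4.3.3 was fitted to log2(FPKM + 1) with group as the only term, for genes averaging 0.5 FPKM or more. The moderated test used a mean-variance trend and Benjamini-Hochberg adjustment over all genes, with a threshold of 0.05. The pseudocount understates changes of low genes. In fragments simulated at these depths with a dispersion of 0.1, the fit missed many of 200 genes with a known change. The changed genes averaged 5 FPKM or more, and differences in tissue content were not simulated. A lack of calls therefore does not show a lack of change. The worth of 1 fragment was the commonest FPKM times length in genes with 1 transcript. Only 29.0% to 48.0% of low values fell within 0.05 of whole fragments, so no counts were recovered and fragment numbers are rough. For genes with several transcripts the longest was used. Intervals cover the fitted error only. Members averaging 5 FPKM or more in either group, or with an unadjusted p under 0.05 or past the threshold, are given with all values, as are up to 4 genes of each further pathway list, those with the smallest p, and Ifnar1, Ifnar2, Ifngr1, Ifngr2 and Nlrc5. A gene that this rule also names is not reported here. Other members given in full were chosen after their values were seen. Members, lists and tests were chosen with earlier results of these data known. Promoter windows are from RefSeq. Summaries used Python 3.11.15, pandas 2.3.3, numpy 2.4.6 and matplotlib 3.10.9. Alternatives changed the pseudocount, filter, trend, scaling, weights, block and libraries.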

Additional observations from a re-analysis of the deposited data

How the results depend on the processing

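No member and no further pathway gene passed under any of 17 alternatives. The smallest adjusted p of a member was 0.606 (limma, Ifit3 with array quality weights). An unadjusted p under 0.05 was reached by 2 members in some alternative, H2-K1 in 5 of 17 and Ifit3 in 1 of 15. Of 477 member fold changes recomputed, 41 took the other sign, and 20 of 31 members kept their sign throughout. The members' median of -0.22 was -1.08 with a mean of at least 5 FPKM (8 members left), 0.062 with quantile normalization and 0.12 without Gm and mitochondrial rows. With 1 library left out it ranged from -0.72 to -0.032, while the median of all genes tested ranged from -0.61 to 0.46. Rescaling to the housekeeping list gave -0.091 for the members and moved the median of all genes from -0.04 to -0.15.

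Over all genes the count of 3 was 8 with a pseudocount of 0.1, 1 with a mean of at least 5 FPKM, 0 without the trend, 1 with quantile normalization, 6 with housekeeping rescaling and 17 with array quality weights. With 1 library left out it ranged from 0 to 12. Without control replicate 3 and Eldr cKI replicate 1, chosen after seeing the data, it was 0 and the members' median was -0.32. The cause of these shifts was not tested. With the replicate block the count was 5 and that of members 0. Same-numbered libraries deviated with correlations of -0.17, 0.03 and -0.15, beside -0.07 to 0.24 for libraries of unlike number. Deviations from means of 3 libraries cannot show whether same-numbered libraries shared a preparation. Most member values rest on few estimated fragments. These include B2m in control replicate 2 (4.85) and Eldr cKI replicate 1 (6.68), and H2-D1 in control replicates 2 (5.89) and 3 (5.40).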
